A study of Mus musculus with 6 samples.

Results

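The genes described here encode 10 subunits of the SWI/SNF remodeller of mammals, the BAF complex: Smarca4, Smarca2, Smarcb1, Smarcc1, Smarcc2, Smarcd1, Smarcd2, Smarcd3, Arid1a and Arid1b. They were taken by symbol, and all 10 were found once among the 52870 gene rows of each file and all 10 passed the filter that left 13579 genes for testing. RNA was sequenced from mouse embryonic stem cells of the C57BL/6 strain in 3 libraries labelled Rbbp4KO, with the genotype Rbbp4-/-, and 3 libraries labelled Rbbp4F/F, which are named as the control. No other allele or agent is named in the labels, which give neither how the deletion was made nor whether the libraries of a group are separate cultures or clones, so p-values measure the spread between these libraries, which may be technical. Levels are FPKM, fragments per kilobase of transcript scaled to library depth, so that levels of different genes can be compared per length. Spacing of the low values gave an estimated 25100000 to 28400000 fragments per library.

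As background, BAF uses the energy of ATP to slide or evict nucleosomes and opens enhancers and promoters. It is assembled from fixed subunits and from positions at which products of related genes replace each other, and the choice of paralog differs between cell types. The form of embryonic stem cells is known for Smarca4 (BRG1) as its ATPase, Smarcc1 (BAF155) in place of Smarcc2 (BAF170), Smarcd1 (BAF60A) and Arid1a (BAF250A), and it is needed there for self-renewal. Rbbp4, the deleted gene, encodes a histone-binding protein of several other chromatin complexes, including NuRD, Sin3, PRC2 and CAF-1, and is no subunit of BAF.

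The targeted gene had 21.28, 12.73 and 11.09 FPKM in Rbbp4KO libraries 1 to 3, against 58.47, 56.97 and 61.75 FPKM in the Rbbp4F/F libraries (log2 fold change −1.96, limma adjusted p = 3.94e-04). All 8 stem cell markers examined were detected in every library, and 6 of them were lower and 1 higher in Rbbp4KO, where 22.5% of all tested genes were lower and 36.7% higher. Their summed level was 846 to 1266 FPKM in the Rbbp4KO libraries and 2580 to 2737 FPKM in the Rbbp4F/F libraries. Of 8 trophoblast markers 6 were higher, and Elf5 and Eomes were not called. The list summed to 105 to 191 FPKM in Rbbp4KO, mostly Krt7 and Hand1, and 35.0 to 44.6 FPKM in Rbbp4F/F. Cdx2 and Gata3 are among the 6 that were higher and passed the filter through the Rbbp4KO libraries alone. Of 8 fibroblast markers, which feeder cells would bring, only Thy1 was tested, and it was lower, with 8.01, 7.26 and 7.76 FPKM in Rbbp4KO and 11.65, 17.95 and 14.67 FPKM in Rbbp4F/F. The sum of the 7 below the filter ran the other way, at 2.05 to 2.90 FPKM in Rbbp4KO and 0.93 to 1.16 FPKM in Rbbp4F/F. Col1a1 did not, with 0.52, 0.36 and 0.38 FPKM in Rbbp4KO and 0.5, 0.48 and 0.54 FPKM in Rbbp4F/F. In 5 of the 7 (Col1a2, Col3a1, Dcn, Lum and Pdgfrb) every Rbbp4KO library was above every Rbbp4F/F library. Among all tested genes 41.3% were so placed, and the share among genes below the filter was not computed. With Thy1 the list summed to 9.31 to 10.7 FPKM in Rbbp4KO and 12.8 to 19.1 FPKM in Rbbp4F/F. The part of these other transcripts in the BAF results was not tested.

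The stem cell forms Smarca4, Smarcc1 and Smarcd1 fell in Rbbp4KO, and the rarer paralogs Smarca2 and Arid1b rose. Of the 10 genes, 5 were lower in Rbbp4KO (Smarca4, Smarcb1, Smarcc1, Smarcd1 and Smarcd2), 2 were higher (Smarca2 and Arid1b) and 3 were not called (Smarcc2, Smarcd3 and Arid1a), by limma on log2(FPKM + 1) with Benjamini-Hochberg adjustment over all tested genes and a threshold of 0.05. The change in these cells was broad, and 59.1% of all tested genes were called, 36.7% as higher and 22.5% as lower, so that a count of 7 of 10 called is near the background. The groups did not overlap for 8 of the 10 genes, 5 lower and 3 higher in Rbbp4KO, against 66.8% of all tested genes, 25.5% lower and 41.3% higher. The median log2 fold change of the 10 genes was −0.24, against 0.17 over all tested genes. With median-ratio scaling between libraries the medians were −0.38 for the 10 genes and 0.019 for all. Scaling moved the split of all calls, which was 4978 higher and 3051 lower as reported, 3994 higher and 3844 lower with median-ratio scaling and 6080 higher and 2380 lower with equal FPKM sums. In bulk RNA, fewer cells with a transcript and less of it per cell cannot be told apart.

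**Figure D1:**
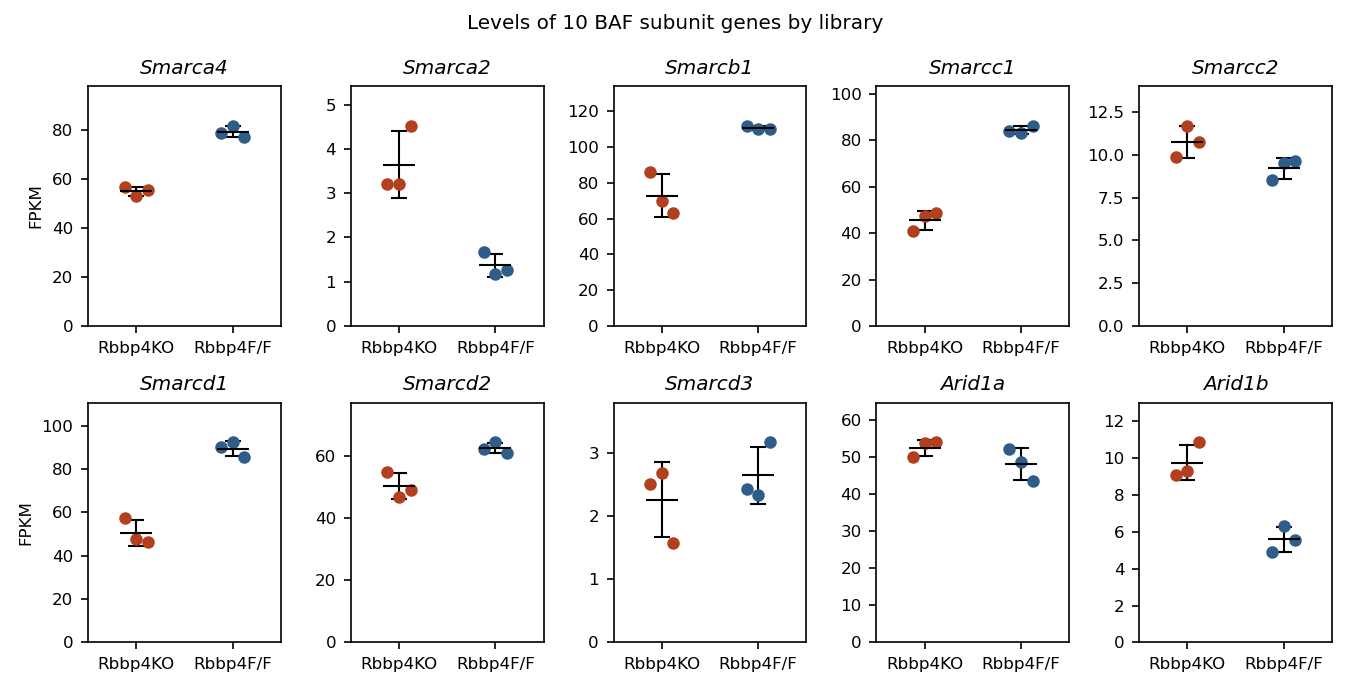
FPKM of each of the 10 BAF genes (linear axes from 0, a scale for each gene) in 3 Rbbp4KO and 3 Rbbp4F/F libraries, with the mean and SD as black bars. The groups do not overlap for 8 of the genes, and they overlap for Smarcd3 and Arid1a.

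The ATPase position is the motor of the complex, held by either Smarca4 or Smarca2 (BRM). Smarca4 (ENSMUSG00000032187, GRCm38 chr9:21616169-21704230, plus strand) had 56.59, 53.0 and 55.26 FPKM in Rbbp4KO and 78.65, 81.51 and 77.06 FPKM in Rbbp4F/F. Every Rbbp4KO library lay below every Rbbp4F/F library, and the mean of 55.0 ± 1.81 FPKM was 69.5% of the 79.1 ± 2.25 FPKM in Rbbp4F/F (SD, n = 3 each). Its log2 fold change was −0.52 (with SE 0.068 and, by limma, adjusted p = 7.79e-04). Smarca2 (ENSMUSG00000024921, chr19:26605050-26778322, plus strand) went the other way, with 3.21, 3.21 and 4.52 FPKM in Rbbp4KO and 1.66, 1.18 and 1.26 FPKM in Rbbp4F/F. Its groups do not overlap either, and the mean of 3.65 ± 0.756 FPKM was 2.67 times that of 1.37 ± 0.257 FPKM in Rbbp4F/F, with a log2 fold change of 0.97 (with SE 0.17 and, by limma, adjusted p = 0.00249). The lowest Smarca2 value corresponds to about 167 fragments if these were spread over its longest transcript. Smarca4 remained the main ATPase transcript in every library, at 94.6%, 94.3% and 92.4% of the summed FPKM of both genes in Rbbp4KO and 97.9%, 98.6% and 98.4% in Rbbp4F/F. The Smarca2 share was 6.21% ± 1.18 in Rbbp4KO and 1.70% ± 0.330 in Rbbp4F/F. Summed over both ATPases the level was 58.6 ± 2.07 FPKM in Rbbp4KO and 80.4 ± 2.19 FPKM in Rbbp4F/F, a difference set mainly by Smarca4.

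The sequences before the starts of this pair and of the Smarcc pair are shown. Each pair holds a gene that fell next to a paralog that rose or was not called. Smarcd1 and Smarcd3 are also such a pair but are not shown. They are read 5′ to 3′ on the plus strand of GRCm38.p6 from the RefSeq promoter table and cover the part of the 250 bases before the annotated start that holds no GENCODE exon. The RefSeq starts used for Smarca2 and Smarcc1 lie inside the spans GENCODE gives these genes. The whole windows of Smarcd2, Smarcd3 and Arid1b, which enter the counts below, also lie inside the spans of their genes. Capitals mark the GC box bound by Sp and KLF factors, GGGCGG, on either strand.
Smarca4, chr9:21615919-21616168: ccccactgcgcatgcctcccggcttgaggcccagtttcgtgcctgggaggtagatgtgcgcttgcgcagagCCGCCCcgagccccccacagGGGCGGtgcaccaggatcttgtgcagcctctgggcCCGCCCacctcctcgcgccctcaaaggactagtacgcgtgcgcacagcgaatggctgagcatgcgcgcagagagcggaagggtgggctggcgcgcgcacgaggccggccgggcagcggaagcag
Smarca2, chr19:26604910-26605049: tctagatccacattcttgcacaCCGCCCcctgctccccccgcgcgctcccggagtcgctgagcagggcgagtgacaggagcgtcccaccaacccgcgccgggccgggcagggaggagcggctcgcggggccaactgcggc
Smarcc1, chr9:110131774-110131979: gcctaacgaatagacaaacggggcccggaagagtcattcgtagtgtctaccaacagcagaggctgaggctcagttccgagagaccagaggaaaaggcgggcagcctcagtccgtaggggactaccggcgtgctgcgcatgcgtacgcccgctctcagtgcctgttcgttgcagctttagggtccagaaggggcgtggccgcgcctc
Smarcc2, chr10:128458986-128459235: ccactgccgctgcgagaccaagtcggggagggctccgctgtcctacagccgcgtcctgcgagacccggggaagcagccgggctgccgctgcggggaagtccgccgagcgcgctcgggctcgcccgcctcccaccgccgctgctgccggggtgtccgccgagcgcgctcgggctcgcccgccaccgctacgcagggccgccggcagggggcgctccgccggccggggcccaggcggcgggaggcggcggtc
All 4 stretches are rich in G and C, at 70.8% for Smarca4, 73.6% for Smarca2, 61.7% for Smarcc1 and 80.8% for Smarcc2. Over the full 250 bases of the 11 windows of the 10 genes (Arid1a has 2) the median was 70.8% G and C with 28 CG steps, against 52.4% and 6 over all 32851 windows in the table. The GC box was found in a window of 9 of the 10 genes, all but Smarcc2, and in 32.7% of all windows. For Smarcc1, Smarcd1 and Smarcd2 it lay only in GENCODE exon bases. Windows of like G and C content were not compared. The E2F letters TTTCCCGC were found in windows of Smarcd1 and Arid1a and in 0.895% of all windows, on either strand. For Smarcd1 they lie in GENCODE exon bases, past the start GENCODE gives the gene. For Arid1a they lie only in the window at chr4:133753986-133754235, inside the span GENCODE gives the gene. None of the 10 genes had the NF-Y box CCAAT (33.8% of all windows), the cell cycle element TTTGAA (16.0%), the E2F variant TTTGGCGC (0.417%) or the E-box CACGTG (6.02%). At the ATPase position the gene that fell and the gene that rose both hold the GC box.

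Smarcc1 and Smarcc2 encode the scaffold on which the core of the complex is built. Smarcc1 (ENSMUSG00000032481, chr9:110117708-110240178, plus strand) had 40.87, 47.17 and 48.62 FPKM in Rbbp4KO and 83.93, 83.12 and 86.17 FPKM in Rbbp4F/F. The groups are far apart, and the mean of 45.6 ± 4.12 FPKM was 54.0% of the 84.4 ± 1.58 FPKM in Rbbp4F/F. Its log2 fold change of −0.88 (with SE 0.086 and, by limma, adjusted p = 2.42e-04) was the largest fall among the 10 genes, and 9.45% of all tested genes had a lower one. Smarcc2 (ENSMUSG00000025369, chr10:128459248-128490482, plus strand) had 9.84, 11.68 and 10.72 FPKM in Rbbp4KO and 8.5, 9.53 and 9.61 FPKM in Rbbp4F/F. The Rbbp4KO libraries are all above the Rbbp4F/F libraries but by little, and it was not called (log2 fold change 0.20, 95% interval −0.064 to 0.47, limma adjusted p = 0.161). It passed as higher with libraries set to equal FPKM sums (0.35, limma adjusted p = 0.0405). The Smarcc2 share of the scaffold transcript was 19.1% ± 0.928 in Rbbp4KO and 9.84% ± 0.570 in Rbbp4F/F, while the summed level of the position was 56.3 ± 4.85 FPKM in Rbbp4KO and 93.6 ± 1.87 FPKM in Rbbp4F/F.

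Smarcb1 (BAF47, a tumour suppressor) is a core subunit for which the complex has no paralog. It had 86.03, 69.81 and 63.05 FPKM in Rbbp4KO and 111.87, 110.05 and 110.08 FPKM in Rbbp4F/F, and was the most abundant of the 10 transcripts in both groups (ENSMUSG00000000902, chr10:75896769-75921617, minus strand). The Rbbp4F/F libraries lie within 2 FPKM of each other, whereas Rbbp4KO library 1 stands above the rest of its group. The mean of 73.0 ± 11.8 FPKM was 65.9% of the 111 ± 1.04 FPKM in Rbbp4F/F (log2 fold change −0.61 with SE 0.12 and, by limma, adjusted p = 0.00392). Without Rbbp4KO library 1 the log2 fold change was −0.73.

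The Smarcd genes encode the BAF60 subunits, which link the complex to transcription factors. Smarcd1 (ENSMUSG00000023018, chr15:99702129-99713991, plus strand) had 57.4, 47.89 and 46.4 FPKM in Rbbp4KO and 90.26, 92.2 and 85.5 FPKM in Rbbp4F/F. The groups do not overlap, and the mean of 50.6 ± 5.97 FPKM was 56.6% of the 89.3 ± 3.45 FPKM in Rbbp4F/F (log2 fold change −0.81 with SE 0.098 and, by limma, adjusted p = 5.35e-04). Exons of antisense genes cover 12.7% of Smarcd1, and of these Gm17349 had 7.31, 4.41 and 0.75 FPKM in Rbbp4KO and 7.1, 8.57 and 5.33 FPKM in Rbbp4F/F. Smarcd2 (ENSMUSG00000078619, chr11:106263179-106272972, minus strand) had 55.05, 47.04 and 49.25 FPKM in Rbbp4KO and 62.37, 64.51 and 61.2 FPKM in Rbbp4F/F. This fall was smaller, with a mean of 80.5% of that in Rbbp4F/F (log2 fold change −0.31 with SE 0.083 and, by limma, adjusted p = 0.0154). The Smarcd2 call was lost with equal FPKM sums (−0.15, limma adjusted p = 0.0981), without Rbbp4F/F library 1 (0.0558) or 2 (0.0611) and without Rbbp4KO library 2 (0.0633). The range over the alternatives tried was 0.00231 to 0.0981. Both transcripts made up the same share of the position in Rbbp4KO, 48.9% ± 1.11 for Smarcd1 and 48.9% ± 1.52 for Smarcd2. In Rbbp4F/F the shares were 57.7% ± 0.612 for Smarcd1 and 40.5% ± 0.307 for Smarcd2.

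Smarcd3 (BAF60C), the form known from heart and muscle, was low in both groups (ENSMUSG00000028949, chr5:24590818-24624411, minus strand). It had 2.51, 2.69 and 1.58 FPKM in Rbbp4KO and 2.43, 2.34 and 3.17 FPKM in Rbbp4F/F, and these ranges overlap (log2 fold change −0.17, 95% interval −0.61 to 0.27, limma adjusted p = 0.453). Antisense exons of Chpf2 and Mir671 cover 48.2% of Smarcd3, and Chpf2 had 7.80 ± 0.906 FPKM in Rbbp4KO and 5.85 ± 0.427 FPKM in Rbbp4F/F. No source used here states whether strand entered the counting, and without strand reads of the antisense gene cannot be told apart from those of Smarcd3.

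Arid1a and Arid1b encode the large DNA-binding subunits that define the canonical form of BAF. Arid1a (ENSMUSG00000007880, chr4:133679008-133756769, minus strand) had 49.97, 53.65 and 53.92 FPKM in Rbbp4KO and 52.05, 48.72 and 43.51 FPKM in Rbbp4F/F. The groups overlap, and Arid1a was the stem cell form that was not called (log2 fold change 0.13, 95% interval −0.085 to 0.34, limma adjusted p = 0.256). Its direction depended on scaling, at −0.034 with median-ratio scaling (limma adjusted p = 0.774) and 0.28 with equal FPKM sums, where it passed as higher (limma adjusted p = 0.0370). Arid1b (ENSMUSG00000069729, chr17:4994332-5347656, plus strand) had 9.12, 9.31 and 10.86 FPKM in Rbbp4KO and 4.93, 6.3 and 5.59 FPKM in Rbbp4F/F. All Rbbp4KO libraries lie above all Rbbp4F/F libraries, and the mean of 9.76 ± 0.954 FPKM was 1.74 times that of 5.61 ± 0.685 FPKM in Rbbp4F/F (log2 fold change 0.71 with SE 0.13 and, by limma, adjusted p = 0.00342). The summed level of the position was 62.3 ± 2.91 FPKM in Rbbp4KO and 53.7 ± 4.10 FPKM in Rbbp4F/F, and Arid1b made up 15.7% ± 1.01 of it in Rbbp4KO and 10.5% ± 1.60 in Rbbp4F/F.

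**Figure D2:**
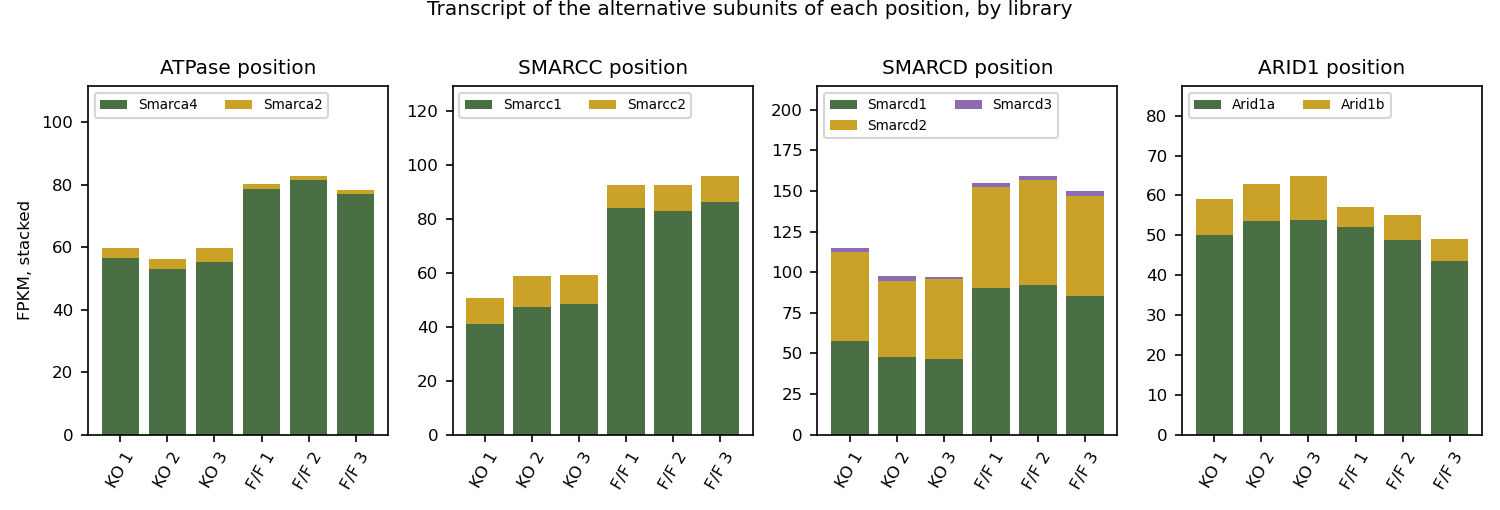
FPKM of the alternative genes at 4 BAF positions, stacked, in each library (Rbbp4KO left, Rbbp4F/F right). The stacks of the ATPase, SMARCC and SMARCD positions are lower in every Rbbp4KO library than in every Rbbp4F/F library, while the ARID1 stacks are higher, at 59.1 to 64.8 FPKM in Rbbp4KO and 49.1 to 57.0 FPKM in Rbbp4F/F.

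Ratios within a library, which scaling between libraries cannot change, compared each paralog with the stem cell form directly in 5 pairs. The level of Smarca4 was 17.6, 16.5 and 12.2 times that of Smarca2 in Rbbp4KO and 47.4, 69.1 and 61.2 times in Rbbp4F/F. The log2 ratio of Smarca2 over Smarca4 was −3.93 ± 0.28 in Rbbp4KO and −5.87 ± 0.28 in Rbbp4F/F, a 3.83-fold difference. Smarcc1 stood at 4.15, 4.04 and 4.54 times Smarcc2 in Rbbp4KO and at 9.87, 8.72 and 8.97 times in Rbbp4F/F, a 2.17-fold difference. For Arid1a over Arid1b the values were 5.48, 5.76 and 4.97 in Rbbp4KO and 10.6, 7.73 and 7.78 in Rbbp4F/F, a 1.59-fold difference. Smarcd1 and Smarcd2 were nearly level in Rbbp4KO, at ratios of 1.04, 1.02 and 0.942, against 1.45, 1.43 and 1.40 in Rbbp4F/F. In these 4 pairs every Rbbp4KO library had the larger part of the paralog, with p = 0.1 in a two-sided exact permutation test, the smallest that 3 against 3 libraries allow, so that no pair could pass 0.05. The share of all genes without overlap relative to the same stem cell forms was not computed. Smarcd3 over Smarcd1 overlapped between the groups (exact permutation p = 0.2), and the overlap with Chpf2 applies to it.

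The same pairs were also tested by limma with every tested gene expressed relative to the stem cell form. This used log2(FPKM + 1), whereas the ratios above had no pseudocount. The difference was 1.48 for Smarca2 over Smarca4 (95% interval 1.12 to 1.85, limma adjusted p = 1.93e-04), where 72.5% of genes were called and 64.2% rose relative to Smarca4. It was 1.08 for Smarcc2 over Smarcc1 (0.82 to 1.34, limma adjusted p = 1.07e-04), where 81.2% of genes were called and 77.7% rose relative to Smarcc1. For Smarcd2 and Smarcd3 over Smarcd1 it was 0.50 (0.27 to 0.74, limma adjusted p = 0.00297) and 0.64 (0.22 to 1.07, limma adjusted p = 0.0131), where 80.9% of genes were called and 76.4% rose. A rise relative to these 3 falling genes was common among all tested genes. For Arid1b over Arid1a it was 0.58 (0.21 to 0.94, limma adjusted p = 0.0173), where 50.6% of genes were called and 27.1% rose relative to Arid1a.

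**Figure D3:**
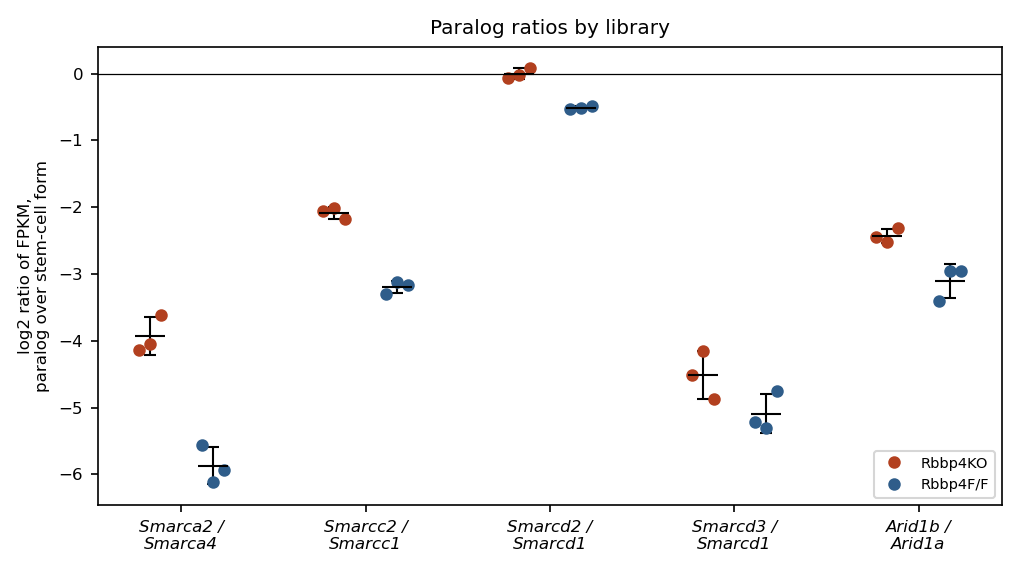
Log2 ratio of FPKM, paralog over stem cell form, for 5 pairs in each library, Rbbp4KO left of Rbbp4F/F, with mean and SD as black bars. The Rbbp4KO libraries lie above the Rbbp4F/F libraries in 4 pairs, and the groups overlap for Smarcd3 over Smarcd1.

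The order of levels changed with these shifts. From high to low the Rbbp4KO means ran Smarcb1, Smarca4, Arid1a, Smarcd1, Smarcd2, Smarcc1, Smarcc2, Arid1b, Smarca2 and Smarcd3. The 5 from Smarca4 to Smarcc1 lay between 45.6 and 55.0 FPKM, and each overlapped its neighbour in range over the libraries, as did Smarcc2 and Arid1b. In Rbbp4F/F the order was Smarcb1, Smarcd1, Smarcc1, Smarca4, Smarcd2, Arid1a, Smarcc2, Arid1b, Smarcd3 and Smarca2. There, only Smarcd1 and Smarcc1 overlapped as neighbours, and Arid1a, lowest of the stem cell forms, reached 48.1 FPKM.

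The remaining subunits of BAF and its variants moved in both directions. Of 20 further genes, 17 were tested, of which 6 were lower, 5 higher and 6 not called, a share of 64.7% called that is near the 59.1% over all tested genes. The median log2 fold change was −0.057, against 0.17 over all tested genes. Actl6a (BAF53A), an actin-related protein of stem and progenitor cells, was lower (log2 fold change −0.75, limma adjusted p = 5.50e-04). It had 80.84, 70.31 and 65.94 FPKM in Rbbp4KO and 118.42, 124.5 and 121.73 FPKM in Rbbp4F/F. Antisense exons of Mrpl47 cover 11.6% of it. Smarce1 (BAF57), an HMG-box subunit, had 98.1 ± 8.21 FPKM in Rbbp4KO and 102 ± 1.62 FPKM in Rbbp4F/F and was not called (limma adjusted p = 0.567). Ss18, which is fused to SSX genes in human synovial sarcoma, was higher, at 68.6 ± 3.89 FPKM in Rbbp4KO and 52.8 ± 1.55 FPKM in Rbbp4F/F (log2 fold change 0.37, limma adjusted p = 0.00484).

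The Dpf and Bcl7 families each split. Dpf2 (BAF45D), a histone reader, had 118.28, 88.63 and 89.3 FPKM in Rbbp4KO and 52.61, 54.6 and 49.4 FPKM in Rbbp4F/F, a 1.89-fold rise in the mean (log2 fold change 0.89, limma adjusted p = 9.70e-04). Dpf3 (BAF45C) was also higher, with 3.37, 2.93 and 3.19 FPKM in Rbbp4KO and 0.79, 0.39 and 0.32 FPKM in Rbbp4F/F (log2 fold change 1.48, limma adjusted p = 3.65e-04). Only the Rbbp4KO libraries took it past the filter. Dpf1 (BAF45B), known from neurons, was lower, at 8.34 ± 0.820 FPKM in Rbbp4KO and 14.4 ± 2.08 FPKM in Rbbp4F/F. Bcl7b had 42.84, 35.57 and 34.57 FPKM in Rbbp4KO and 16.67, 17.08 and 15.3 FPKM in Rbbp4F/F, while Bcl7c had 28.12, 28.02 and 28.48 FPKM in Rbbp4KO and 59.04, 47.28 and 50.88 FPKM in Rbbp4F/F. The log2 fold change was 1.15 for Bcl7b (limma adjusted p = 2.12e-04) and −0.86 for Bcl7c (limma adjusted p = 4.13e-04), and Bcl7b lay above Bcl7c in every Rbbp4KO library and lay below it in every Rbbp4F/F library. Bcl7a was lower (−0.53, limma adjusted p = 0.00732).

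Among subunits of the variant assemblies some were called in each direction. In PBAF, the variant with bromodomain and zinc finger subunits, Phf10 (BAF45A) was lower at 34.5 ± 1.62 FPKM in Rbbp4KO and 51.7 ± 2.66 FPKM in Rbbp4F/F (log2 fold change −0.57, limma adjusted p = 9.76e-04), while Arid2 (0.13), Pbrm1 (0.15) and Brd7 (0.12) were not called. In the non-canonical variant Bicral was lower at 5.75 ± 0.381 FPKM in Rbbp4KO and 13.3 ± 1.01 FPKM in Rbbp4F/F (log2 fold change −1.08, limma adjusted p = 2.96e-04), the largest fall of any subunit tested. Its paralog Bicra was not called (−0.26, limma adjusted p = 0.177), though it passed as lower without Rbbp4KO library 1 (−0.37, limma adjusted p = 0.0330). Brd9, a bromodomain subunit of the same variant, was higher (0.43, limma adjusted p = 0.0280), a call lost with median-ratio scaling (0.28), without a filter and without Rbbp4F/F library 1 or 3 or Rbbp4KO library 2 or 3, where its limma adjusted p was 0.0506 to 0.118. Antisense exons of Gm26904 cover 11.3% of Bicral.

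Of the subunits known from the neuronal form, Dpf1 was well above the filter and lower in Rbbp4KO, as given above. Dpf3, also known from that form, was low but went the other way and was called higher (log2 fold change 1.48). The others were low. Actl6b (BAF53B) was at most 0.28 FPKM in any library, and Bcl11a and Bcl11b were also below the filter, at up to 0.89 and 0.66 FPKM. Ss18l1 (CREST) had 1.65 ± 0.242 FPKM in Rbbp4KO and 2.04 ± 0.261 FPKM in Rbbp4F/F and was not called. Of 6 neuronal markers 5 were tested. Tubb3, Map2 and Stmn2 were lower and Syp was higher, where 22.5% of all tested genes were lower and 36.7% higher. The list summed to 114 to 148 FPKM in Rbbp4KO and 429 to 455 FPKM in Rbbp4F/F, mostly Stmn2 and Tubb3, while Syp had 18.6, 11.97 and 10.04 FPKM in Rbbp4KO and 1.42, 1.67 and 1.34 FPKM in Rbbp4F/F. Of 6 heart and muscle markers 3 were tested, to be read against the same shares of all tested genes. Ttn was higher (log2 fold change 1.08, limma adjusted p = 0.00391) and passed the filter through the Rbbp4KO libraries alone, and Myl7 was lower (−1.04, limma adjusted p = 0.0135). The list summed to 6.19 to 9.73 FPKM in Rbbp4KO and 6.27 to 7.73 FPKM in Rbbp4F/F.

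**Figure D4:**
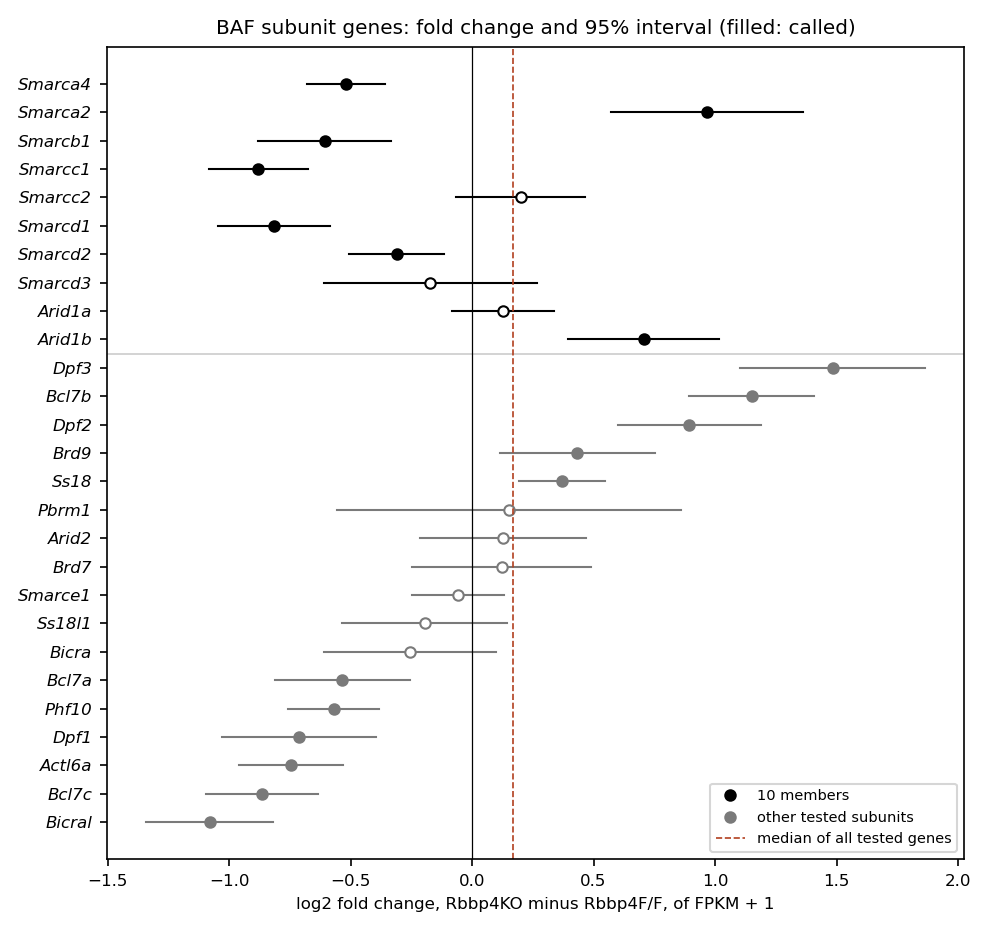
Log2 fold change of FPKM + 1, Rbbp4KO minus Rbbp4F/F, with its 95% interval from limma, for the 10 genes (black) and the 17 other tested subunits (grey), filled where called. Smarca4, Smarcc1 and Smarcd1 lie left of 0 with Smarcb1 and Smarcd2, Smarca2 and Arid1b lie right of it, and the dashed line is the median of all tested genes at 0.17.

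Among 11854 tested protein-coding genes the profile over the 6 libraries nearest to that of Smarca4, by Euclidean distance of centred log2(FPKM + 1), was that of the maintenance DNA methyltransferase gene Dnmt1 (distance 0.045). Dnmt1 had 62.41, 59.32 and 60.56 FPKM in Rbbp4KO and 86.08, 87.83 and 86.1 FPKM in Rbbp4F/F. The next were Nolc1 and Snx18, at 0.069 and 0.079. For Smarca2 the nearest were Afmid, Zfp719 and Snx6, at 0.14 to 0.16.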

How the data were processed

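The 6 deposited files have no header and list gene identifiers with their values. No source names the unit. The authors' values were read as FPKM, since they are not whole and add up to 697933 to 800146 per library. Per the submitters' processing notes, the tools were HISAT2 2.1.0, RSEM, FastQC and DESeq, and the build GRCm38.p6, with no role given. Mapping options, annotation release and strand are stated in no source used here. 2 rows per file that name no gene were left out. Symbols, coordinates and exons came from GENCODE M21 on GRCm38, which matched 51719 of 51912 Ensembl identifiers, and 958 assembled loci have no symbol.

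The 13579 genes that reached 1 FPKM in 3 or more libraries entered limma 3.58.1 in R 4.3.3 on log2(FPKM + 1), group as the only term, a mean-variance trend, two-sided, Benjamini-Hochberg adjusted over all of them. A fold change is on that scale, which understates the change of low genes. Means are given ± SD with n = 3. Ratios of paralogs used FPKM with no pseudocount, except in limma, where the fits of ratios had no mean-variance trend. Depth was estimated from single-transcript genes of known length, where 85.7% to 88.2% of low values lay within 0.15 of a whole fragment, and 1 fragment on 5 kb is worth 0.00704 to 0.00797 FPKM. No count model was used. The members, lists, marker genes and alternatives were chosen with earlier results of these data known. All members and listed subunits could be named, with Rbbp4, stem cell markers and the 3 genes of nearest profile to Smarca4 and to Smarca2. Alternatives were median-ratio and upper-quartile scaling, equal FPKM sums, a pseudocount of 0.1, no filter, a filter of 5 FPKM, the replicate number as a block and each library left out.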

Additional observations from a re-analysis of the deposited data

How the results depend on the processing

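Over the alternatives tried, 121 of 128 values of the 10 genes kept direction and call. 4 lost the call, all of Smarcd2, 2 gained it with equal FPKM sums (Smarcc2 and Arid1a) and 1 changed sign (Arid1a with median-ratio scaling, −0.034). The number of members called higher, 2, was 4 with equal FPKM sums and 1 with a filter of 5 FPKM, which leaves out Smarca2 by construction. With each library left out in turn, members called higher were 2 throughout and those called lower were 4 to 5, other subunits called higher 4 to 5 and lower 6 to 7, and all genes called higher 4231 to 5592 and lower 2436 to 3587. Differences of log2 paralog ratios then ran from 1.78 to 2.09 for Smarca2 over Smarca4, 1.06 to 1.16 for Smarcc2 over Smarcc1, 0.47 to 0.54 for Smarcd2 over Smarcd1, 0.39 to 0.75 for Smarcd3 over Smarcd1 and 0.52 to 0.75 for Arid1b over Arid1a.

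On log2(FPKM + 1) the 5 ratios passed the threshold in limma, at 1.48, 1.08, 0.50, 0.64 and 0.58 in the same order. The smallest p is not limited there as in the permutation test, and the scale also differs. Smarcd3 over Smarcd1 was 0.57 with no pseudocount (exact permutation p = 0.2) and 0.64 with a pseudocount of 1 (exact permutation p = 0.1). Same-numbered libraries did not deviate together over all genes (correlations of −0.0012, −0.0093 and 0.049). This cannot tell whether they were prepared side by side, and the labels state no pairing. With the replicate number as a replicate block the ratio differences were again 1.48, 1.08, 0.50, 0.64 and 0.58 (limma adjusted p = 8.75e-04 to 0.0341), and no call among the 27 tested subunits changed. Among other remodellers Ino80 lost its call (limma adjusted p = 0.0717) and Atrx gained 1 (0.0194). The lowest values of Smarca2 and Smarcd3 correspond to about 167 and 143 fragments.

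Signs also changed for genes that were not called, with the cause not tested. With median-ratio scaling these were Arid2 (−0.026), Brd7 (−0.038), Smarca5 (−0.052), Chd4 (−0.057) and Hells (−0.056), and with equal FPKM sums Smarce1 (0.10) and Srcap (0.065). With each library left out, Brd7 ran from −0.060 to 0.23, Smarca5 from −0.089 to 0.30, Hells from −0.11 to 0.32 and Pbrm1 from −0.14 to 0.47, lowest without Rbbp4KO replicate 3.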

Other observations

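Of 14 ATPases of other remodeller families, 13 passed the filter, and limma called 5 of them higher and 0 lower (1 lower, Ep400, at an unadjusted p under 0.05), against 36.7% and 22.5% of all tested genes. Chd3, a NuRD ATPase, had 24.75, 24.83 and 20.12 FPKM in Rbbp4KO and 2.9, 2.77 and 3.51 FPKM in Rbbp4F/F (log2 fold change 2.58, limma adjusted p = 3.70e-05), while its paralog Chd4 had 140.0 ± 1.87 FPKM in Rbbp4KO and 130.2 ± 7.91 FPKM in Rbbp4F/F and was not called. Chd2 (1.20), Chd1 (0.74), Chd8 (0.35) and Ino80 (0.31) were also higher, but the Chd8 call was lost in 3 alternatives (limma adjusted p up to 0.119) and the Ino80 call in 7 (up to 0.219), median-ratio scaling included. Ep400 (−0.22) passed as lower with median-ratio scaling (−0.38), with upper-quartile scaling and without Rbbp4KO library 1. The ISWI ATPase Smarca5 had 24.3 ± 6.72 FPKM in Rbbp4KO and 22.0 ± 0.166 FPKM in Rbbp4F/F.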
